A study of Mus musculus with 4 samples.

Results

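Chromosome 11 had the highest mean replication timing of the mouse chromosomes in the population-based profile of F121-9 cells, and was chosen by that value. Its members are all 50 kb bins of the deposited profile that lie on chromosome 11, 2376 bins of the 51153 on the 19 autosomes and X, from position 3100001 to 122000000 of mm10. Every bin of the chromosome that holds assembled sequence had a value. F121-9 is a diploid mouse embryonic stem cell (mESC) line, a hybrid of a *musculus* 129 and a *Castaneus* genome, grown without feeder cells in N2B27 with 2i and LIF. There was no other genotype or treatment: the 4 libraries were 2 of the early S-phase fraction and 2 of the late S-phase fraction of cells labeled with BrdU and sorted by DNA content. The deposited value, RT, is log2 of early over late reads, each scaled to the total of its fraction. The profile holds 1 number per bin for the line, none per library, and how the libraries of a fraction enter it is not given in the sources used here. A bin with RT above 0 is called early here and any other bin late. Because there is 1 value per bin, no spread between cultures is known and no comparison below was tested. The bin-to-bin noise of the profile was an SD of 0.15 log2 on this chromosome, from 391 bins in stretches of nearly constant RT. This noise describes neighboring bins only, and any smoothing of the profile, which is unknown, would lower it. It gives no error for a mean over bins or for a difference between chromosomes. The hybrid line is a single line, the profile averages both homologs and all sorted cells, and the study describes chromosome gains and losses in some of its cells.

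Mammalian chromosomes are copied in large domains, in each of which many origins fire at about the same time of S-phase. Early domains are as a rule rich in GC, genes and active chromatin, and late domains are poor in genes and often lie at the nuclear lamina. Stretches of nearly constant timing are called constant timing regions (CTRs), and the stretches that join an early to a late one are called timing transition regions (TTRs). Many promoters of broadly used genes lie in CpG islands, where the dinucleotide CpG escapes the loss seen in the rest of the genome. Mouse chromosome 11 carries the Hoxb and alpha globin clusters, the type 2 cytokine genes, type I keratins and *Trp53*.

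The sequence of its gene starts differed between early and late genes. Shown for 6 genes, to let this be seen, are the 200 bases before the start on the gene's own strand, in GRCm38.p6 (the mm10 assembly) from RefSeq. CpG dinucleotides are in capitals. They are the latest and the earliest genes of the gene groups described below, at most 1 per group, among those whose start was the same in RefSeq and GENCODE vM21 and whose 200 bases touch no annotated exon. The first 3 start in late bins.
Ccl12, chr11:82101645-82101844, plus strand: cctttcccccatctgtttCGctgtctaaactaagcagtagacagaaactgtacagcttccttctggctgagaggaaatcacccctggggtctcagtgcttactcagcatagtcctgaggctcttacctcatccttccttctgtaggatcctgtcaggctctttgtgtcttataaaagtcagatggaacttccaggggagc
Krtap4-9, chr11:99785000-99785199, plus strand: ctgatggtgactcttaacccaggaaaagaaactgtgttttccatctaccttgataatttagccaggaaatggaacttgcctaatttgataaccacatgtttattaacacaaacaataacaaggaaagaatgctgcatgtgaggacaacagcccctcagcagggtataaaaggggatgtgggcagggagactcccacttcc
Olfr382, chr11:73517198-73517397, minus strand: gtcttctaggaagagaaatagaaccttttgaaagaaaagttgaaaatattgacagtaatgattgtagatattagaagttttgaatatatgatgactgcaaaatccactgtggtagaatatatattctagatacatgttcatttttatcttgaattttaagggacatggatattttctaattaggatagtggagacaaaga
The next 3 start in early bins.
Eif4a1, chr11:69672424-69672623, minus strand: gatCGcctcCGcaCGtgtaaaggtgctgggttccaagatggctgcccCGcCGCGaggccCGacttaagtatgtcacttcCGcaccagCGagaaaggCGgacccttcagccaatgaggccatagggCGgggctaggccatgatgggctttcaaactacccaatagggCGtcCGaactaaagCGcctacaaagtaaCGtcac
Tbx21, chr11:97115332-97115531, minus strand: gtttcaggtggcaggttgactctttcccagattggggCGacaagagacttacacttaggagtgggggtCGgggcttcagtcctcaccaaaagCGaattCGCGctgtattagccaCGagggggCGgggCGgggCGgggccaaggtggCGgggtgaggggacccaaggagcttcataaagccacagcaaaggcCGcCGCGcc
Nlgn2, chr11:69837785-69837984, minus strand: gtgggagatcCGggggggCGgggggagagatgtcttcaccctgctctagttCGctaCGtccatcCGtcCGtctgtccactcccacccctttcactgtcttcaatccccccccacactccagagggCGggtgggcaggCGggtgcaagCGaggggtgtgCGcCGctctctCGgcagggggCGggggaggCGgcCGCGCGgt

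*Ccl12*, a chemokine gene, had RT -3.06 at its start and 1 CpG in these bases. *Krtap4-9*, which encodes a protein of the hair shaft, had RT -2.68 and 0 CpG, and the olfactory receptor gene *Olfr382* had RT -2.52 and 0 CpG. The early genes held more. *Eif4a1*, an RNA helicase of translation initiation, had RT 3.76 and 15 CpG, *Tbx21*, a T cell transcription factor, had RT 3.71 and 13, and *Nlgn2*, a protein of inhibitory synapses, had RT 3.59 and 17. The genes were selected on RT, and the same count over all genes gives the base. In the window from 250 bases before to 50 bases after the start, the median number of CpG (the letters CG, which read the same on both strands) was 16 for the 1428 genes of chromosome 11 that start in early bins and 3 for the 211 that start in late bins. At least 1 CpG stood in 94.8% of the windows of all chromosomes and in 96.0% of those of chromosome 11. A window counted as CpG-rich at a GC content of at least 50% and an observed over expected CpG of at least 0.6. Of the early genes of chromosome 11, 52.2% had a CpG-rich window, and of its late genes 19.9%. On the other chromosomes 7184 of 14376 early genes had one, and 19.1% of late genes, close to the shares on chromosome 11.

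Mean RT of chromosome 11 was 0.64, with a median of 1.40, an SD over bins of 2.65 and quartiles of -1.85 and 3.13. Chromosome 19 came next at 0.14, a difference of 0.50, then chromosome 9 at -0.10 and chromosome 17 at -0.11. Chromosome 3, at -1.50, and X, at -1.68, were last. Only 2 of the 20 chromosomes had a mean above 0. On chromosome 11, 1453 bins were early and 923 late. This is 61.2% early (exact Clopper-Pearson interval at 95%, 59.2% to 63.1%, for counting error alone, since neighboring bins are not independent), where 40.9% of all bins of the autosomes and X were early. These values are those that chose the chromosome and are given as a description. Comparisons below of its bins, windows, domains, CTRs and genes with those elsewhere use the same profile. The choice favors early values in them.

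**Figure D1:**
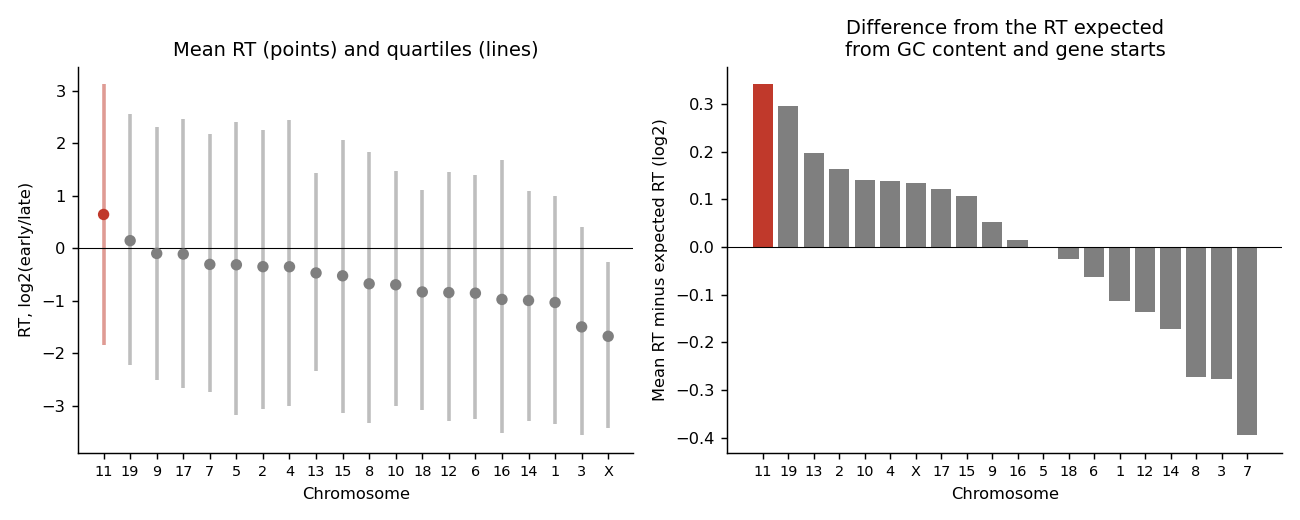
Left, mean RT of each chromosome (points, log2 of early over late) with the lower and upper quartile of its bins (lines), in order of the mean. Right, mean RT minus the mean expected from the GC content and gene starts of the bins. Chromosome 11 (red) is first in both, at 0.64 and 0.34, with chromosome 19 next at 0.14 and 0.30. Both use the mean RT that chose chromosome 11.

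The high mean came from many bins near the early end of the scale and few near the late end. In steps of 0.5 log2, the most filled interval on chromosome 11 was RT 3 to 3.5, with 404 bins or 17.0% of the chromosome, against 7.65% of the bins elsewhere. The interval from -4 to -3.5 held 7.41% of its bins and 14.9% of those elsewhere. Of the bins of chromosome 11, 41.5% fell in the earliest of 5 equal classes of the genome's bins and 10.9% in the latest. The chromosome held 4.64% of all bins and 78 of the 512 earliest bins of the genome (the top 1%), which is 15.2%. In the middle of the scale, from RT -1.5 to 1.5, the intervals each had 3.49% to 4.17% of the bins of chromosome 11 and 4.40% to 4.86% of those elsewhere. Early bins of chromosome 11 had a mean RT of 2.55, with 2.07 for early bins elsewhere. Its late bins had a mean of -2.36, with -2.55 elsewhere.

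The mean differed along the chromosome. The first 1188 bins, up to position 62600000, had a mean RT of -0.10 and were 49.8% early. The other 1188 bins had a mean of 1.38 and were 72.5% early. When each chromosome was cut into a first and a second part with the same number of bins, the second part of chromosome 11 ranked 1 of 40 and its first part 12 of 40. The second part of chromosome 4 followed at 0.78. By its mean, the first part of chromosome 11 was level with chromosome 9. The parts also differed in sequence, with a GC content of 42.2% and 8.82 protein-coding gene starts per Mb in the first, and 45.5% and 18.8 per Mb in the second. Without its longest early run (below), the mean of the chromosome was 0.45 and still ranked 1 of 20.

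**Figure D2:**
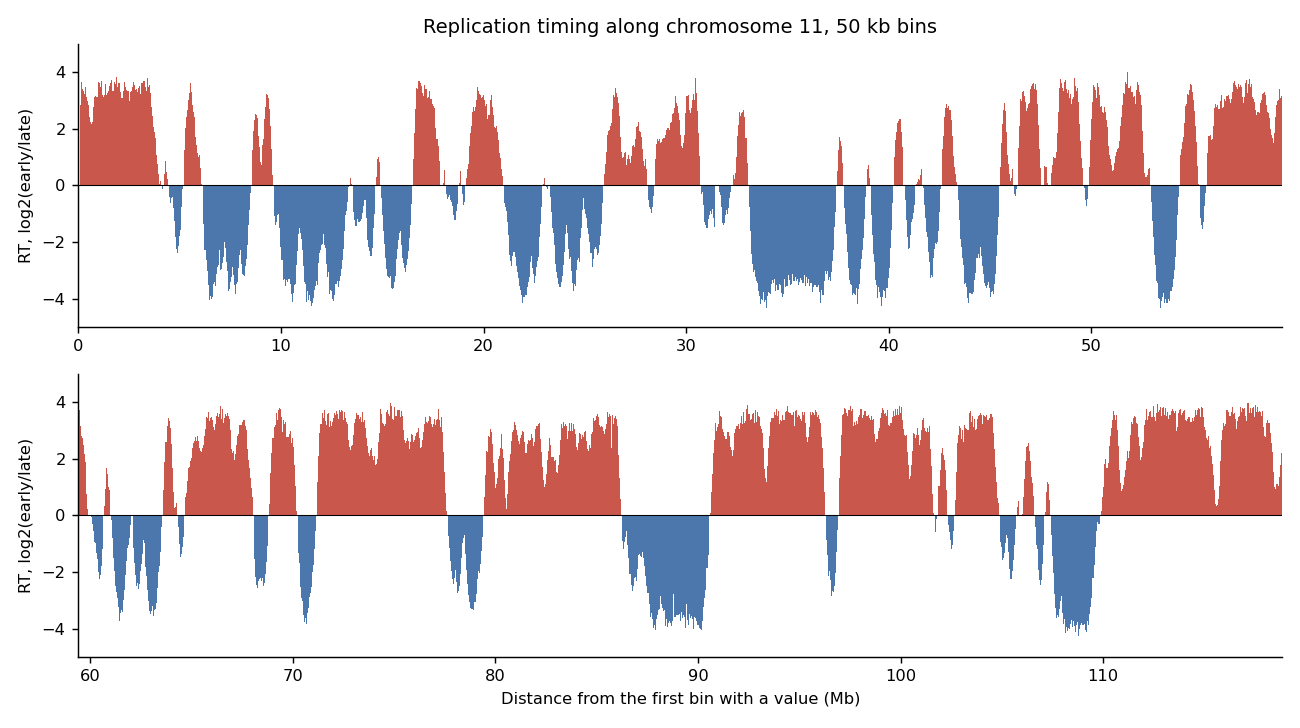
RT (log2 of early over late) of the 50 kb bins of chromosome 11 against the distance from the first bin with a value, in Mb, in an upper and a lower panel. Early bins are red and late bins blue. Early and late stretches alternate in the upper panel, where the longest late run stands right of the middle, and the lower panel is mostly early.

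In non-overlapping 5 Mb windows, the mean RT of chromosome 11 ran from -2.46 to 3.20. The earliest window, from 115000001 to 120000000, had RT between 0.34 and 3.94 in all of its 100 bins, a GC content of 50.5% and 122 gene starts. The latest, from 35000001 to 40000000, had 6 gene starts and a GC content of 39.8%, and 16.0% of its bins were early. Among the windows with at least 90 bins, 6 of 23 on chromosome 11 had a mean above 2 (26.1%), against 32 of 473 elsewhere (6.77%). Only 1 of 23 had a mean below -2 (4.35%), against 119 of 473 elsewhere (25.2%). The earliest window of the genome was not on chromosome 11, whose earliest window ranked 4. The windows were cut at fixed positions, and neighboring windows share domains.

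GC content and gene density were the sequence features examined beside RT. The GC content of chromosome 11 was 43.8%, rank 1 of 20, and its share of masked repeat sequence was the lowest, 30.6%. It had 13.8 protein-coding gene starts per Mb, rank 2 behind chromosome 7 with 14.2. Over the 20 chromosomes, mean RT and GC content had a Pearson's r of 0.94 and a Spearman's rho of 0.95, and mean RT and gene starts per Mb an r of 0.82 and a rho of 0.87. Over the 2376 bins of chromosome 11, RT had an r of 0.70 and a rho of 0.72 with GC content, an r of 0.39 and a rho of 0.48 with the number of gene starts, and a rho of -0.12 with the share of masked sequence. All these points come from the same profile, neighboring bins share domains, and GC content can also affect sequencing, whose part in RT was not tested.

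When all bins were sorted into 10 classes of GC content, 21.7% of chromosome 11 lay in the class of highest GC and 17.6% in the next, against 9.43% and 9.63% of the bins elsewhere. Within the classes, mean RT of chromosome 11 was above that of the other chromosomes in 10 of 10, which its choice by mean RT favors. The difference was largest in the class from 39.1% to 40.1% GC, at 0.83 log2 (-0.94 against -1.77). In the seventh class, from 42.3% to 43.7% GC, it was 0.01, and there the share of early bins was lower on chromosome 11, 54.1% against 56.0%. By gene starts, the 1447 bins of chromosome 11 without a start had a mean RT of -0.34, with -1.35 elsewhere. Bins with 1 start had a mean of 1.95, with 0.69 elsewhere. Bins with 2 starts had a mean of 2.43, with 1.45 elsewhere. The difference was smallest for bins with 3 or more starts, 0.48 log2, of which 88.1% were early, with 81.0% elsewhere.

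**Figure D3:**
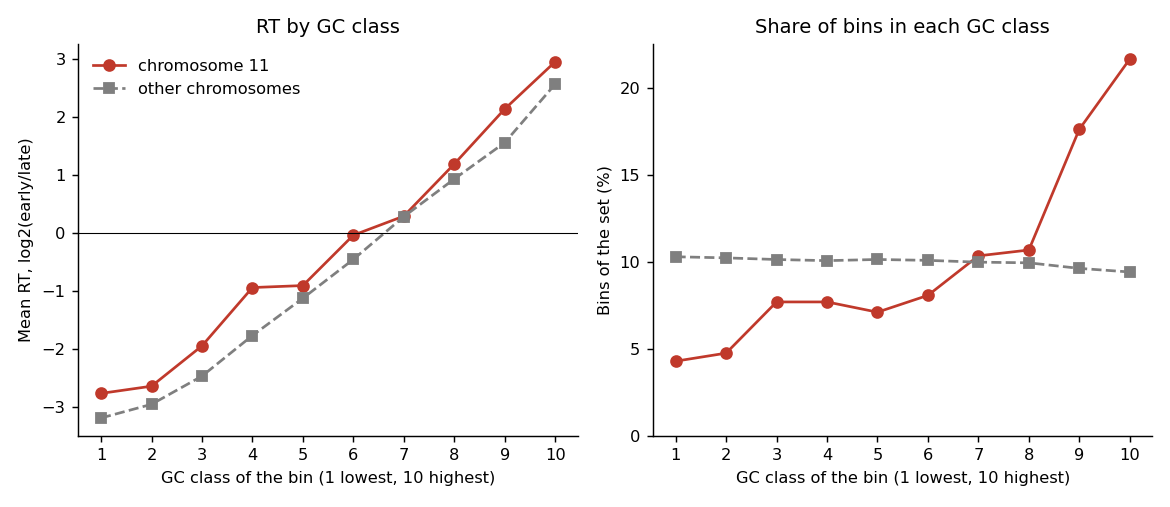
Left, mean RT (log2 of early over late) of bins in 10 classes of GC content, for chromosome 11 (red circles) and the other chromosomes (gray squares). Right, the share of the bins of each set that falls in each class, in percent. Chromosome 11 lies above the others on the left in all classes, by 0.01 in the seventh, and holds 21.7% of its bins in the highest class on the right.

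Both features were then combined. Each bin was given the mean RT of the bins of the other chromosomes with the same GC class and the same number of gene starts (0, 1, 2, or 3 and more). This gave an expected mean RT of 0.30 for chromosome 11, and the observed mean was 0.34 higher. The observed mean is the value that chose the chromosome, so a high difference is favored by that choice and is a description. Chromosome 19 followed with a difference of 0.30 and chromosome 13 with 0.20, while chromosome 7, with the highest gene density, lay 0.39 below its expected value. For the first part of chromosome 11 the expected mean was -0.46 and the observed mean 0.36 higher. For the second part it was 1.06, and the observed mean was 0.32 higher. With gene starts alone the expected mean of the chromosome was -0.38, and with GC classes alone 0.24. Chromosome 11 was not higher throughout: of the 38 combinations of GC class and number of starts found on it, 12, with 365 bins, had a lower mean than elsewhere. The mean was -1.66 in 117 bins, with -1.40 elsewhere, for the fifth GC class without a start, and 1.04 in 18 bins, with 2.21 elsewhere, for the eighth with 3 or more starts. The expected values assume that bins of one class are alike on all chromosomes, and no error can be given for them.

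Runs of bins on one side of RT 0 describe the domains. Chromosome 11 had 84 runs, 42 early and 42 late, and 51 TTRs. Its early runs had a median length of 800 kb, with 600 kb elsewhere, and its late runs 750 kb, with 850 kb elsewhere. The early median had rank 4, behind chromosomes 9 (950 kb), 19 (850 kb) and 5 (825 kb). Late medians of the chromosomes ran from 600 kb on chromosome 13 to 1300 kb on X. The larger difference was in the long runs. Of the early bins of chromosome 11, 56.6% lay in its 7 early runs of at least 4 Mb, while elsewhere 23.6% of early bins lay in the 40 such runs. Of its late bins, 18.9% lay in its 2 late runs of at least 4 Mb, with 38.5% in 87 runs elsewhere. The 12 early runs of at least 2 Mb had 21.8 gene starts per Mb and a GC content of 46.4%, and the 30 shorter early runs 13.5 per Mb and 44.2%. The 7 late runs of at least 2 Mb had 33 gene starts over 22.05 Mb in all and a GC content of 39.1%, and the 35 shorter late runs 7.36 per Mb and 41.9%.

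The longest early run went from 113000001 to 122000000, the end of the values, and was 9.00 Mb long. It is rank 5 among the longest early runs of the chromosomes. Its mean RT was 2.95, its GC content 49.6%, and 208 protein-coding genes start in it. They include *Grb2*, a signaling adaptor, *Birc5*, which encodes survivin, the Polycomb genes *Cbx2* and *Cbx8*, and *Actg1*, a cytoplasmic actin. The next early run, from 82550001 to 89350000, averaged RT 2.56 and held 106 gene starts, among them the Slfn genes and the developmental regulators *Lhx1* and *Tbx2*. The third, from 74300001 to 80750000, averaged RT 3.03 and held 125, with *Rpa1*, a subunit of the single-strand DNA binding complex, *Suz12*, a subunit of the Polycomb complex that methylates histones, and *Nf1*, a Ras regulator.

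The longest late runs held few genes. The run from 36200001 to 40550000 was 4.35 Mb long, with a mean RT of -3.34 and a GC content of 37.9%. A single protein-coding gene starts in it, *Tenm2*, a teneurin of neuronal connections. The run from 89350001 to 93700000 was equally long, with a mean RT of -2.92 and 11 gene starts, among them *Hlf*, a transcription factor gene, and *Car10*. The run from 12750001 to 16500000 averaged RT -2.82, with 2 gene starts (*Pom121l12* and *Vstm2a*) and 47.5% masked sequence. The 3 longest intervals from one protein-coding gene start to the next were late on average as well. Between the starts of *Tenm2* and *Mat2b*, a subunit of the enzyme that makes S-adenosylmethionine, 3.46 Mb had a mean RT of -3.20 with 2 of 68 bins early. Between those of *Cobl* and *Pom121l12*, 2.13 Mb had a mean of -2.16 with 5 of 41 bins early, and between those of *Bcl11a* and *5730522E02Rik*, 2.13 Mb had a mean of -2.41 with 3 of 42 bins early. The last of these intervals is not free of genes, since it contains the bodies of *Bcl11a* (96.1 kb) and *5730522E02Rik* (608 kb), which point into it.

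Single bins marked the ends of the scale. The earliest bin, from 54900001 to 54950000, had RT 3.99, with 3.58 and 3.44 in its neighbors, and holds the start of *Gpx3*, an extracellular glutathione peroxidase. The latest, from 37050001 to 37100000, had RT -4.34, with -4.04 and -3.90 beside it, and lies inside *Tenm2*. The early bin with the lowest GC content, 35.0%, from 29450001 to 29500000, had RT 2.71 and lies in *Ccdc88a*.

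CTRs (at least 10 bins with a slope of at most 2.5 log2 per Mb over 5 bins) covered 18.3% of the bins of chromosome 11, rank 2 behind chromosome 16. Of its 22 CTRs, 18 were early (81.8%), where elsewhere 127 of 411 were (30.9%). The choice of the chromosome by its mean RT favors a high early share, which is given for this slope limit only. On the chromosomes next in mean RT, 7 of 8 were early on chromosome 19, 10 of 19 on chromosome 9 and 11 of 17 on chromosome 17. RT averaged 3.54 in the longest early one, 96800001 to 98350000, where its SD over 31 bins was 0.16, and 43 genes start there. RT averaged -3.57 in the longest late one, 36750001 to 39650000, inside the late run of *Tenm2*, with an SD of 0.27 over 58 bins. Early CTRs of chromosome 11 had a median of 3.48 for their mean RT, with 3.39 elsewhere, and late CTRs -3.81, with -3.75 elsewhere. The lowest of the 18 early CTRs lay at 1.77, with an SD of 0.22 over its 12 bins from 31750001 to 32350000, and contains the alpha globin locus.

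TTRs ran between a bin at RT 1 or above and one at -1 or below. Chromosome 11 had 0.43 per Mb, rank 14 of 20. In the direction of the coordinates RT fell in 25 and rose in 26, and 47 of 51 crossed RT 0 once. The center lay in a protein-coding gene for 20 of the 51. The share of the chromosome inside gene bodies was not measured, so this count cannot tell whether centers favor or avoid genes. TTRs of chromosome 11 had a median length of 200 kb, as elsewhere, and a median slope of 12.7 log2 per Mb, with 12.0 elsewhere. Near the center, the average profiles of chromosome 11 and of the other chromosomes lay close together. The definition of TTRs by RT 0, 1 and -1 largely sets this. At 100 kb on the early side mean RT was 1.16, with 1.15 elsewhere, and at 100 kb on the late side -1.12, with -1.08 elsewhere. The averages parted farther out, and at 1000 kb on the early side mean RT was 0.80, with 0.19 elsewhere. The TTR with the largest slope, 116 log2 per Mb, was a jump from RT -2.95 to 2.83 between neighboring bins at the start of the profile, inside *Drg1*. It rests on the first 2 bins with a value, the second of which holds the start of *Sfi1*, and without it 50 TTRs remained and the largest slope was 17.5 log2 per Mb. The smallest slope, 2.57 log2 per Mb, was that of a TTR from 6950001 to 7900000 that crossed RT 0 3 times. *Tenm2* itself spans a TTR. Its start bin had RT -3.80 and its far end, 1229 kb away, lies in an early run, with the center of the transition at 36182033.

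**Figure D4:**
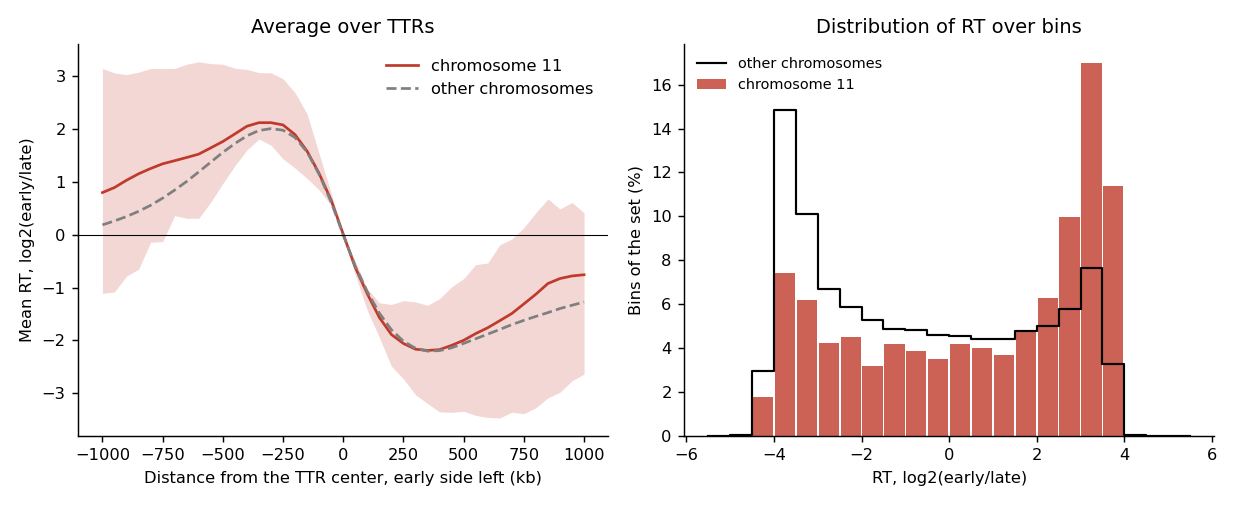
Left, mean RT (log2 of early over late) against the distance from the TTR center in kb, with the early side on the left, over 51 TTRs of chromosome 11 (red, band from the lower to the upper quartile) and 1107 elsewhere (gray). Right, the share of bins in steps of 0.5 RT, in percent, for chromosome 11 (red bars) and the other chromosomes (black line). The curves lie close together within 150 kb of the center, which the definition of TTRs largely sets. Chromosome 11 has 17.0% of its bins at RT 3 to 3.5.

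Genes were placed by the bin of their start. All 1639 protein-coding genes of chromosome 11 had a value. Of these, 87.1% were early (exact interval 85.4% to 88.7%, again for counting error alone), where 72.9% of the genes of the autosomes and X were. Several genes often share a bin, so genes are not independent. Their median RT was 3.12, with 2.16 elsewhere. Of the 211 late genes, 53 were olfactory receptor genes and 31 were keratin or keratin-associated genes. Without these families, 91.6% of the remaining 1507 genes were early (90.1% to 92.9%), with 14176 of 18911 elsewhere (74.3% to 75.6%). Genes over 200 kb were fewer than elsewhere, 2.87% of genes against 4.75%, and 20 of the 47 were late. They made up 9.48% of the late genes and 1.89% of the early ones.

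In 21 groups of genes, 339 genes in all, 227 started in early bins. All members were early in 12 groups, members lay on both sides in 8, and no member was early in 1. The groups were chosen with earlier results of these data known, and their counts stand beside the 87.1% of the genes of chromosome 11 and the 72.9% of all genes that were early.

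**Figure D5:**
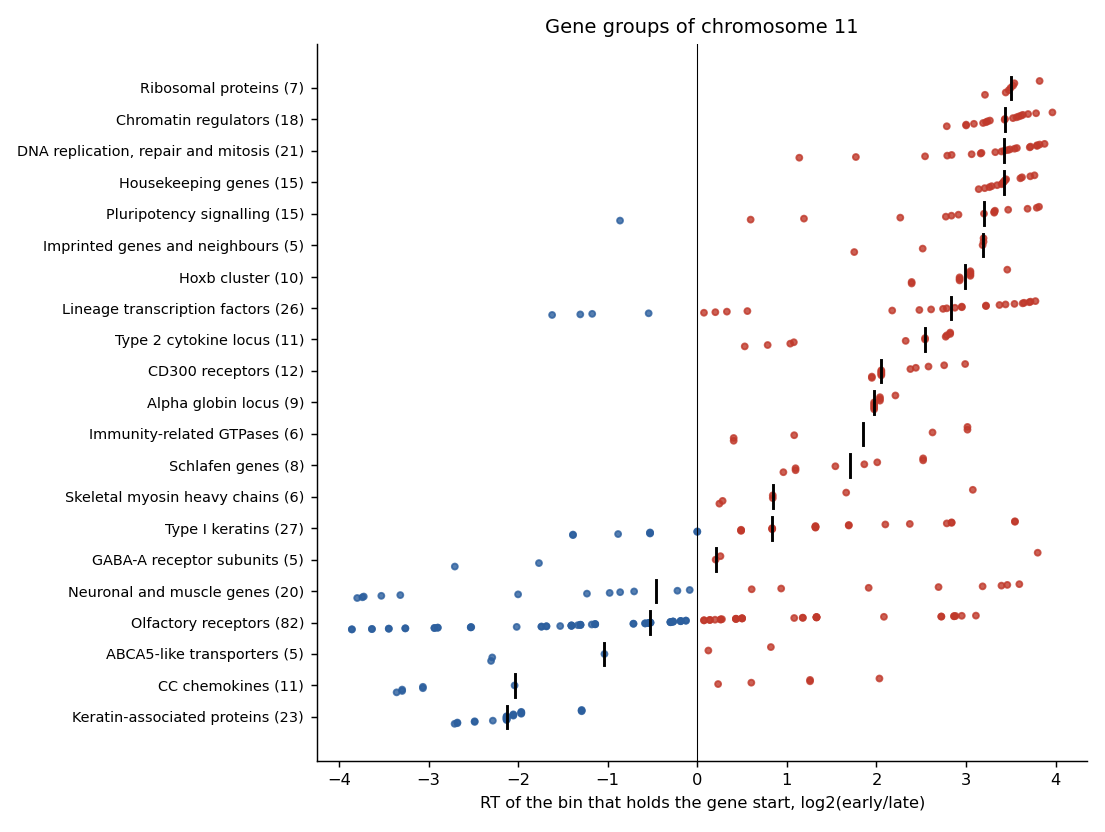
RT (log2 of early over late) of the bin that holds the start of each gene, for 21 gene groups of chromosome 11 with the number of genes in parentheses. Red points are early genes, blue points late genes and black bars medians. Ribosomal protein genes are highest, with a median of 3.50, and keratin-associated protein genes lowest, with a median of -2.13 and 0 of 23 early.

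The groups drawn up for broadly used genes were early throughout. On this chromosome 87.1% of all genes were early, and its early genes had a median RT of 3.23. The 7 ribosomal protein genes had a median RT of 3.50, from *Rps27a* at 3.21 to *Rpl23a* at 3.82. The 15 housekeeping genes lay between 3.14 for *Psmd11*, a proteasome subunit, and 3.76 for *Eif4a1*. The 21 genes of DNA replication, repair and mitosis had a median of 3.43, and all were early. *Trp53*, which encodes the tumor suppressor p53, was the earliest of them at 3.88. *Brca1*, of homologous recombination, had 3.43, and *Cdc6*, which loads the replicative helicase, 3.72. *Hus1*, of the DNA damage checkpoint clamp, was the latest at 1.14, and *Brip1*, a helicase that binds BRCA1, had 1.77. The 18 chromatin regulators were all early, with a median of 3.43, from *Smarce1*, a chromatin remodeling subunit, at 2.78 to *Phf12* at 3.96.

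Of the 15 genes of signaling in pluripotent cells, 14 were early. *Lif*, the cytokine added to the medium, had RT 3.69, its transcription factor *Stat3* 3.20 and the feedback inhibitor *Socs3* 3.81. *Tcf7*, a Wnt effector, had 3.79, and *Wnt3* 2.92. The exception was *Map2k4*, a stress kinase, at -0.86, and *Nog*, a BMP antagonist, was the lowest of the early members at 0.60. Among the 26 lineage transcription factors, 22 were early. *Sp6*, *Rara* and *Tbx21* had 3.77, 3.72 and 3.71. The late members were *Meis1*, a homeobox gene, at -1.62, *Hlf* at -1.31, *Foxi1*, a forkhead gene, at -1.17, and *Sox9*, of cartilage and testis development, at -0.54. *Otx1*, *Ebf1*, *Bcl11a* and *Ikzf1* lay just on the early side, at 0.07, 0.20, 0.33 and 0.56. *Otx1* lies within the noise SD of 0, while *Neurod2*, a neuronal factor, had 3.54. The 5 imprinted genes and neighbors were early, from *Grb10*, a growth inhibitor, at 1.75 to *Zrsr1* at 3.20.

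Gene clusters of differentiated tissues were found at both ends and between. The 10 Hoxb genes, which pattern the body axis, lay in 4 bins with RT from 2.39 (*Hoxb1* and *Hoxb2*) to 3.46 (*Hoxb13*). The 9 genes of the alpha globin locus lay in 3 bins at 1.97, 2.04 and 2.21, and the globin genes *Hba-x*, *Hba-a1* and *Hba-a2* shared the bin at 1.97. The 11 genes of the type 2 cytokine locus were all early. *Il4* and *Il13* had 2.82, *Il5* 2.54, *Il3* 0.79 and *Csf2* 0.53. The 8 Slfn genes lay between 0.96 and 2.52, the 12 CD300 receptor genes between 1.95 and 2.99, and the 6 immunity-related GTPase genes between 0.41 and 3.02. The 6 skeletal myosin heavy chain genes ran from *Myh3*, an embryonic form, at 3.08 down to *Myh8* at 0.25, inside a TTR.

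The CC chemokine genes, which encode attractants of leukocytes, split into 2 groups of neighbors. *Ccl11* had RT -3.36, *Ccl2* and *Ccl7* -3.29, *Ccl8* and *Ccl12* -3.06, and *Ccl1* -2.04. Farther along the chromosome, past a TTR, *Ccl5* had 2.03, *Ccl6* and *Ccl9* 1.26, *Ccl3* 0.60 and *Ccl4* 0.23. The 23 keratin-associated protein genes were all late, from -2.71 to -1.29, in 8 bins of 1 late run of 650 kb, from 99400001 to 100050000, which holds 49 gene starts. Its bin from 99550001 to 99600000 had 8 starts and RT -2.13, the most starts of any late bin of the chromosome. The 27 type I keratin genes lay on both sides of the keratin-associated genes. On one flank RT went from 2.78 for *Krt222* to -1.39 for *Krt39* and *Krt40*, with *Krt12* and *Krt20* at the crossing, and on the other from -0.53 for *Krt33a* to 3.55 for *Krt17* and *Krt42*, and 19 of 27 were early.

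Of the 82 olfactory receptor genes, in 41 bins, 29 were early, 35.4% (25.1% to 46.7%), where on the other chromosomes 173 of 1053 were, 16.4%. The interval is for counting error alone and is too narrow, since genes that share a bin share its value. Members lay near the cut on both sides, such as *Olfr1378* at 0.08 and *Olfr1388* at -0.13. The latest, *Olfr391-ps* and *Olfr392* at -3.86, lie in a late run of 950 kb with 29 gene starts and 52.2% masked sequence, and the earliest, *Olfr1371*, had 3.11. The GABA-A receptor subunit genes, which encode chloride channels of inhibitory synapses, were split. *Gabrb2* had -2.71 and *Gabra6* -1.77. *Gabrp* lies apart from both and had 3.80. The 5 transporter genes near *Abca5* ran from -2.30 for *Abca8a* to 0.82 for *Abca5*.

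A group drawn up as large genes of nerve and muscle lay on both sides, though *Egfr*, *Prkca* and *Dock2* in it are not particular to these tissues. Among all genes over 200 kb, 20 of 47 on chromosome 11 were late, and 523 of 951 elsewhere. Of the 20 genes in the group, 12 were late, and of its 16 over 200 kb, 11 were. The latest were *Tenm2* at -3.80, *Gria1*, an AMPA receptor subunit, at -3.74, *Car10* at -3.72, *Sgcd*, a sarcoglycan of muscle, at -3.53 and *Asic2*, a proton-gated channel, at -3.31. These starts were not all poor in CpG: the window at the start of *Sgcd* held 34 and that of *Car10* 7. *Msi2*, a gene of 379 kb for an RNA-binding protein, was early at 3.46. The short genes *Nlgn2* (14.7 kb) and *Dlg4*, a synaptic scaffold (30.6 kb), were early at 3.59 and 3.40. Among all 47 genes over 200 kb the earliest start was that of *Tns3* at 3.63. Timing could change along one gene: *Abca13* started at 0.61 and had a mean of -2.26 over its body, and *Myo1d* started at -0.44 and had a mean of 1.53.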

How the data were processed

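Population-based replication timing came from 4 Repli-seq libraries of F121-9 mESCs, 2 early and 2 late. The deposited values are log2 of early over late RPM per 50 kb bin, made by the authors. The submitters' processing notes name Bowtie2, SAMtools, bedtools and mm10, without versions. How replicates were joined, and any smoothing of this profile, are not given in the sources used here. Read numbers are unknown, so no interval for depth can be given. GC content, soft-masked repeats and promoter windows were read from GRCm38.p6, and genes from GENCODE vM21. Of the 1639 genes of chromosome 11, 1251 had their symbol in the RefSeq promoter table, and 411 had the same start there. TTRs joined states at RT 1 and -1 without gaps above 200 kb, centered on the crossing of RT 0. Noise was the median absolute deviation from the mean of both neighbors inside CTRs, scaled to an SD. Bins of chromosomes other than the autosomes and X were left out. The chromosome, regions and gene lists were chosen with earlier results of these data known. Named are the extreme bins, windows, runs, CTRs and TTRs, the longest intervals between gene starts, and the earliest, latest and exceptional genes of each list, with genes that overlap a named region. Other members of the lists and the extremes among genes over 200 kb were named after their values were seen. Some members of the lists are not reported here by name. The steps were tested on simulated profiles. Alternatives covered smoothing, cuts, limits and strata. Tools were numpy 2.4.6, pandas 2.3.3, scipy 1.17.1 and matplotlib 3.10.9 in Python 3.11.15.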

Additional observations from a re-analysis of the deposited data

How the results depend on the processing

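No paired analysis was possible because each bin has a single value and none per replicate, and leaving out a replicate was not run either. Of 24 other alternatives, 12 kept the result within 1 noise SD, its interval or 1.5 times a count, 11 moved it and 1 reversed its sign. Mean RT of chromosome 11 was -0.10 over the first part of its bins, 1.38 over the second part and 0.45 without its longest early run, 3 alternatives chosen after seeing the data, and its median was 1.40. With the cut at the median RT of all bins, 68.4% of its bins and 91.0% of its genes were early. With states at RT 2 and -2 there were 33 TTRs. CTRs held 4.42% of its bins with slopes of at most 1.5 log2 per Mb, 44.9% with slopes of at most 5, 29.3% with a shortest length of 250 kb and 28.1% when RT was first smoothed by the running median. The difference from expected RT was 1.02 with gene starts alone. Chromosome 11 ranked 1 of 20 in mean RT and early share under every alternative but the first part of its bins. That part ranked 2 against the other chromosomes taken whole, and 12 of 40 among the parts of all chromosomes. Causes were not tested. The depth behind each value is unknown, which limits every statement on single bins.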
